A study of Mus musculus with 8 samples.

Results

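The genes described here are 10 members of the NF-kB pathway. They are the subunit genes Nfkb1, Nfkb2, Rela and Relb, the inhibitor genes Nfkbia and Tnfaip3, and Nfkbiz of the inhibitor of kB family. The others are the ligand gene Tnf and the target genes Birc3 and Icam1. The 10 genes were taken by symbol from the 52325 genes of the count table, all 10 were found, and all 10 passed the filter on low counts. The libraries came from endometrium, the inner layer of the uterus, cut by laser from frozen uterine sections of female mice and sequenced as mRNA. The genotypes were compared with 4 libraries each, 4 WT and 4 Thra1PV/+, and all mice were matched at metestrus, the stage of the estrous cycle that follows ovulation. In Thra1PV/+ mice 1 of the Thra alleles, which encode thyroid hormone receptor α, bears the PV mutation, and the product opposes the normal receptor. The mutation is in the germ line, so every cell type of the captured tissue carried it. Ages of these mice and the number of sections behind a library were not given in the sources used here. The comparison asks whether transcripts that NF-kB is known to control differed between the genotypes.

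NF-kB proteins are dimers of Rel family subunits that are held in the cytoplasm by inhibitor of kB (IkB) proteins. Ligands such as tumour necrosis factor activate the IkB kinase, IkB is degraded, and the dimers enter the nucleus and switch on genes of inflammation, adhesion and cell survival. Among these targets are the genes of several subunits and of the inhibitors themselves, so Nfkbia and Tnfaip3 transcripts are commonly read as a record of recent NF-kB activity. The activity itself is set by where the proteins are in the cell, which mRNA does not measure.

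All 10 are protein-coding genes of GENCODE M21 on GRCm38. The subunit genes lie at chr3:135584655-135691547 (Nfkb1), chr19:46304320-46312385 (Nfkb2), chr19:5637483-5648130 (Rela) and chr7:19606217-19629438 (Relb). The inhibitor genes lie at chr12:55489410-55492647 (Nfkbia) and chr10:19000910-19015657 (Tnfaip3), and Nfkbiz lies at chr16:55811375-55838899. Tnf lies at chr17:35199381-35202007, Birc3 at chr9:7848699-7873186 and Icam1 at chr9:21015985-21028817.

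The promoters of Nfkbia, Tnfaip3 and Nfkb2 carry letters of the kind that NF-kB is known to bind, and these stretches are shown. Binding to these stretches was not measured here. RefSeq promoter windows on GRCm38.p6, each of 300 bases from 250 before to 50 after a start, were held for 7 of the 10 genes, all but Nfkb1, Relb and Nfkbiz. The canonical NF-kB consensus of 10 bases, searched on both strands, was in at least 1 window of 3 of these 7 genes (42.9%), against 26.1% of 111 genes of wider NF-kB pathway lists and 5.14% of all 27025 genes with a window. The matches are given 5′ to 3′ on the strand of the gene with the matching bases in capitals, and 2 matches that overlap, in the first Nfkb2 stretch, are marked as 1 run of 11 capitals.
Nfkbia, chr12:55492657-55492686, minus strand: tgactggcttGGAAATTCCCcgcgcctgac
Tnfaip3, chr10:19015516-19015545, minus strand: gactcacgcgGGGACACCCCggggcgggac
Tnfaip3, chr10:19015403-19015432, minus strand: aatttccatcGGAAATCCCCctgttggcaa
Nfkb2, chr19:46304689-46304717, plus strand: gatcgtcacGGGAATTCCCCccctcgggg
Nfkb2, chr19:46304716-46304745, plus strand: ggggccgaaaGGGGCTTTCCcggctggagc
Nfkb2, chr19:46305449-46305478, plus strand: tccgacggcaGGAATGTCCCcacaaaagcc
Nfkb2, chr19:46305695-46305724, plus strand: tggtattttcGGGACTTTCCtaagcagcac
The Nfkbia match lay 29 bases before the start, outside any annotated exon. The Tnfaip3 matches lay 125 and 12 bases before the start, and the nearer one overlapped an exon of the 5′ untranslated region in the GENCODE M21 annotation. Nfkb2 had the most matches, with marked runs 39 and 11 bases before its first start and others near a downstream start. Of its 4 stretches, 3 overlapped an exon of the 5′ untranslated region, both at the first start among them. No match was found in the windows of Tnf, Birc3, Icam1 and Rela, which says only that these letters were not in those windows.

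Library totals ranged from 48791602 to 59818887 estimated counts. Of 18174 genes tested, 180 were called between the genotypes by edgeR's quasi-likelihood test, which here means at least a 2-fold difference with a Benjamini-Hochberg adjusted p no higher than 0.1. Thra stood at 80.1 ± 34.2 CPM (counts scaled to the size of the library; SD, n = 4) in Thra1PV/+ endometrium and 78.0 ± 33.7 CPM (SD, n = 4) in WT, but transcripts of the PV and the wild-type allele are counted together, so this checks no label. The 10 squamous epithelium markers summed to between 2906 and 4504 CPM in Thra1PV/+ libraries and to between 1.28 and 66.0 CPM in WT. The 7 stromal markers summed to between 403 and 5043 CPM in Thra1PV/+ libraries and between 1527 and 4856 CPM in WT, so libraries of both genotypes held unequal amounts of stroma. The 6 smooth muscle markers summed to 9706 CPM in WT library 1 and to 546, 376 and 818 CPM in WT libraries 2, 3 and 4. In Thra1PV/+ libraries they summed to between 121 and 432 CPM. Red blood cell markers were also highest in WT library 1, at 179 CPM, against at most 57.5 CPM in any other library. In captured tissue, fewer cells of a type and less RNA per cell cannot be told apart.

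None of the 10 NF-kB genes was called, against 0.990% of all tested genes, and DESeq2 called none of them either. None reached an unadjusted p under 0.05, which 9.77% of all tested genes did. The Thra1PV/+ and WT libraries overlapped for all 10, whereas 6.04% of all tested genes showed no overlap. The log2 fold change of Thra1PV/+ over WT was above 0 for 6 of the 10, against 43.2% of all tested genes, and its median was 0.14 against -0.05 over all tested genes. The 95% intervals of the 4 subunit genes were narrower than those of the other 6, and for Tnf and Tnfaip3 they reached past a 4-fold difference in the upward direction. Those of Nfkbia, Nfkbiz, Birc3, Icam1, Nfkb2 and Relb reached past a 2-fold difference upward, downward or both ways. Only for Nfkb1 and Rela did the interval stay within a 2-fold difference either way. The absence of a call therefore does not show that the genotypes were alike for the other genes.

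**Figure D1:**
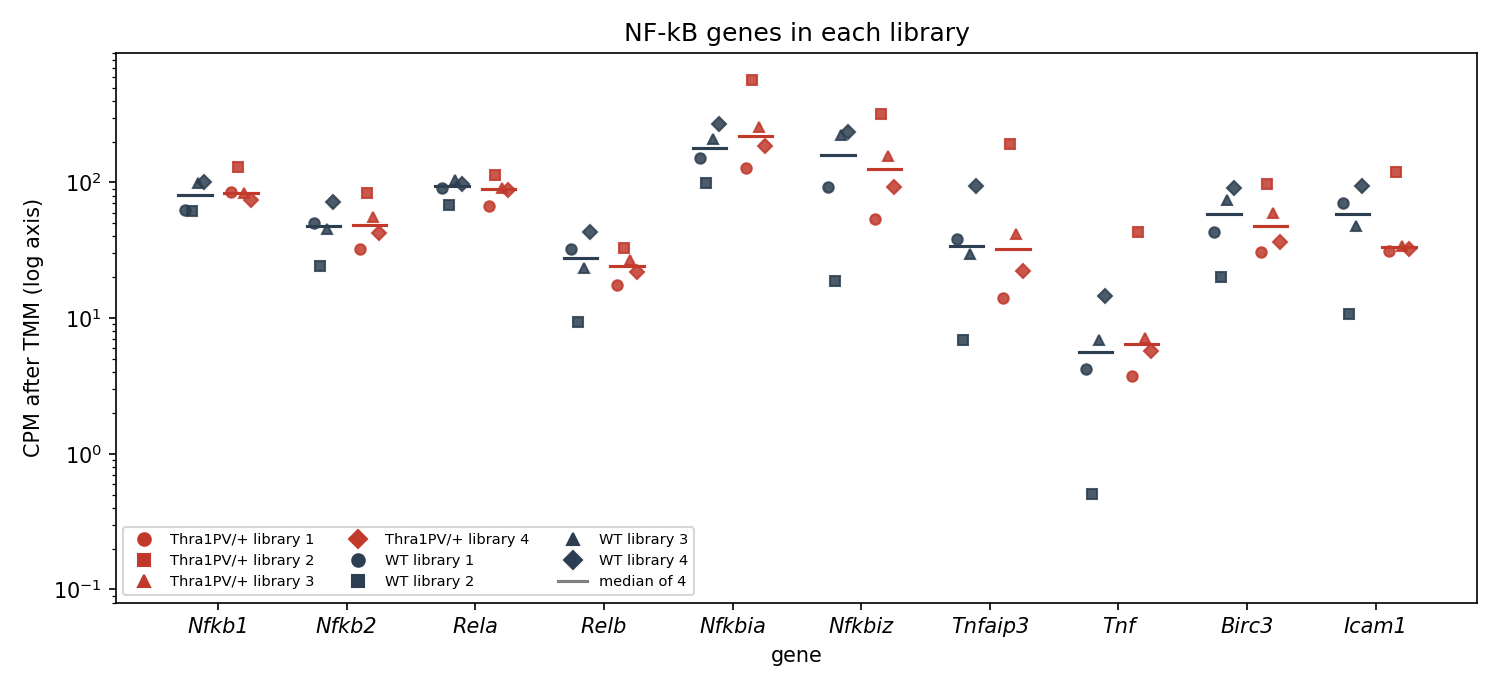
CPM after TMM scaling (log axis) of the 10 NF-kB genes in each of the 4 WT (dark) and 4 Thra1PV/+ (red) libraries, with a marker shape for each library number and a bar at the median of 4. Thra1PV/+ library 2 was the highest Thra1PV/+ library for 10 of 10 genes, WT library 2 was the lowest WT library for 10 of 10, and the genotypes overlap for every gene.

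Nfkbia had the highest level of the 10 genes per length, with a median of 168.2 TPM (a measure per transcript length, as deposited by the authors) over the 8 libraries. Nfkbiz followed at 47.4 TPM, Rela at 46.8, Nfkb1 at 36.7 and Birc3 at 30.7. Lower levels were found for Nfkb2 at 19.4 TPM, Icam1 at 18.8, Relb at 16.4, Tnfaip3 at 9.62 and Tnf at 5.14. The ranges over libraries overlapped for all neighbours in this order. Tnf ran from 0.372 to 33.7 TPM, and Nfkbia, at 90.2 TPM in its lowest library, stood above the highest value of any of the other genes except Nfkbiz, which reached 119 TPM.

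Of the subunits, Rela encodes p65, which carries the activating domain of the canonical dimer. Rela was at 66.5, 112.7, 90.7 and 87.6 CPM in Thra1PV/+ libraries 1 to 4 and at 91.5, 68.5, 103.7 and 98.1 CPM in WT libraries 1 to 4. These 8 values lay within 1.70-fold of each other, the narrowest range of the 10 genes, and the genotypes overlapped. Rela had a log2 fold change of -0.02 (SE 0.194, 95% interval -0.46 to 0.43, adjusted p = 0.988).

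Nfkb1 encodes p105, the precursor of p50, which pairs with p65. Nfkb1 stood at 84.5, 128.9, 83.9 and 74.0 CPM in Thra1PV/+ libraries 1 to 4, against 62.7, 61.3, 99.6 and 101.3 CPM in WT. Thra1PV/+ library 2 was the highest of all libraries, and the other 3 Thra1PV/+ libraries lay between the lower and the upper pair of WT libraries. For Nfkb1 the log2 fold change was 0.19 (SE 0.246, 95% interval -0.37 to 0.76, adjusted p = 0.861).

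Nfkb2 encodes p100, which is cut to p52, and Relb encodes the partner of p52 in the alternative pathway. Nfkb2 was at 32.5, 84.1, 55.2 and 42.7 CPM in Thra1PV/+ libraries 1 to 4 and at 50.4, 24.3, 45.7 and 72.3 CPM in WT. Relb was at 17.6, 33.0, 26.6 and 21.8 CPM in Thra1PV/+ libraries and at 32.5, 9.33, 23.5 and 42.8 CPM in WT. For Relb both the highest and the lowest library were WT, libraries 4 and 2. Nfkb2 had a log2 fold change of 0.15 (SE 0.377, 95% interval -0.71 to 1.02, adjusted p = 0.938). That of Relb was -0.13 (SE 0.420, 95% interval -1.09 to 0.84, adjusted p = 0.959).

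Nfkbia encodes IkBα, the inhibitor that NF-kB resupplies after each round of activation. Nfkbia was at 128.7, 565.9, 254.6 and 187.1 CPM in Thra1PV/+ libraries 1 to 4 and at 152.4, 99.3, 208.3 and 271.0 CPM in WT. One Thra1PV/+ library, number 2, stood above all others, and the other 3 fell within the WT range. The means were 284 ± 195 CPM (SD, n = 4) in Thra1PV/+ and 183 ± 73.8 CPM (SD, n = 4) in WT, and the log2 fold change was 0.64 (SE 0.485, 95% interval -0.47 to 1.75, adjusted p = 0.738). Without Thra1PV/+ library 2 it was 0.06 (95% interval -0.82 to 0.93).

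Tnfaip3 encodes A20, a ubiquitin-editing enzyme that ends signalling to the IkB kinase. Tnfaip3 was at 14.1, 192.5, 42.0 and 22.2 CPM in Thra1PV/+ libraries 1 to 4 and at 38.1, 6.93, 29.7 and 93.7 CPM in WT. The values spread 27.8-fold over the libraries, 13.7-fold within Thra1PV/+ and 13.5-fold within WT. Between the genotypes the log2 fold change was 0.68 (SE 0.951, 95% interval -1.49 to 2.86, adjusted p = 0.875). Without Thra1PV/+ library 2 its sign turned, to -0.69 (95% interval -2.52 to 1.13). It was 0.18 with voom sample weights and 0.31 on log2(TPM + 1).

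Nfkbiz encodes IkBζ, a nuclear protein of the IkB family that acts with p50 on secondary targets. Nfkbiz was at 53.7, 318.6, 156.6 and 92.7 CPM in Thra1PV/+ libraries 1 to 4 and at 93.3, 18.6, 223.3 and 235.3 CPM in WT. WT libraries 3 and 4 were above 3 of the 4 Thra1PV/+ libraries, and WT library 2 was the lowest. The log2 fold change was 0.12 (SE 0.774, 95% interval -1.65 to 1.90, adjusted p = 0.979), and -0.50 without Thra1PV/+ library 2.

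Tnf encodes tumour necrosis factor, both an inducer and a target of NF-kB, and had the largest positive difference of the 10 genes. Tnf was at 3.75, 43.4, 7.11 and 5.69 CPM in Thra1PV/+ libraries 1 to 4 and at 4.24, 0.506, 6.92 and 14.5 CPM in WT. The estimated counts ran from 28 in WT library 2 to 2138 in Thra1PV/+ library 2, an 85.8-fold span in CPM and the widest of the 10 genes. Outside these libraries the ranges of the genotypes overlapped. Tnf had a log2 fold change of 1.20 (SE 1.039, 95% interval -1.18 to 3.58, adjusted p = 0.775), and -0.25 without Thra1PV/+ library 2 (95% interval -2.31 to 1.82).

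Birc3 encodes cIAP2, a ubiquitin ligase of the receptor complex that protects cells from death, and Icam1 encodes an adhesion molecule to which leukocyte integrins bind. Birc3 was at 30.6, 98.0, 59.6 and 36.5 CPM in Thra1PV/+ libraries 1 to 4 and at 43.0, 20.1, 74.5 and 91.0 CPM in WT. Icam1 was at 31.3, 120.2, 34.2 and 32.4 CPM in Thra1PV/+ libraries and at 70.2, 10.7, 47.5 and 94.0 CPM in WT. For Icam1, 3 Thra1PV/+ libraries lay close together below 3 of the 4 WT libraries, and Thra1PV/+ library 2 lay far above them. Birc3 had a log2 fold change of -0.03 (SE 0.513, 95% interval -1.20 to 1.15, adjusted p = 0.993). It was -0.03 (SE 0.676, 95% interval -1.57 to 1.52, adjusted p = 0.995) for Icam1, and -0.77 (95% interval -2.19 to 0.66) without Thra1PV/+ library 2. Under several scalings and filters the values of Birc3, Icam1 and Rela changed sign around 0.

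Of the 6 positive differences, 5 changed sign without Thra1PV/+ library 2. In that fit, 1 of the 10 log2 fold changes was above 0, that of Nfkbia, and the median was -0.27. Without Thra1PV/+ library 1 or without WT library 4, which were the lowest and the highest of their genotype for 9 genes each, all 10 were above 0. Without WT library 2, 4 of 10 were above 0. In each of the 8 fits that left out 1 library, no NF-kB gene was called.

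**Figure D2:**
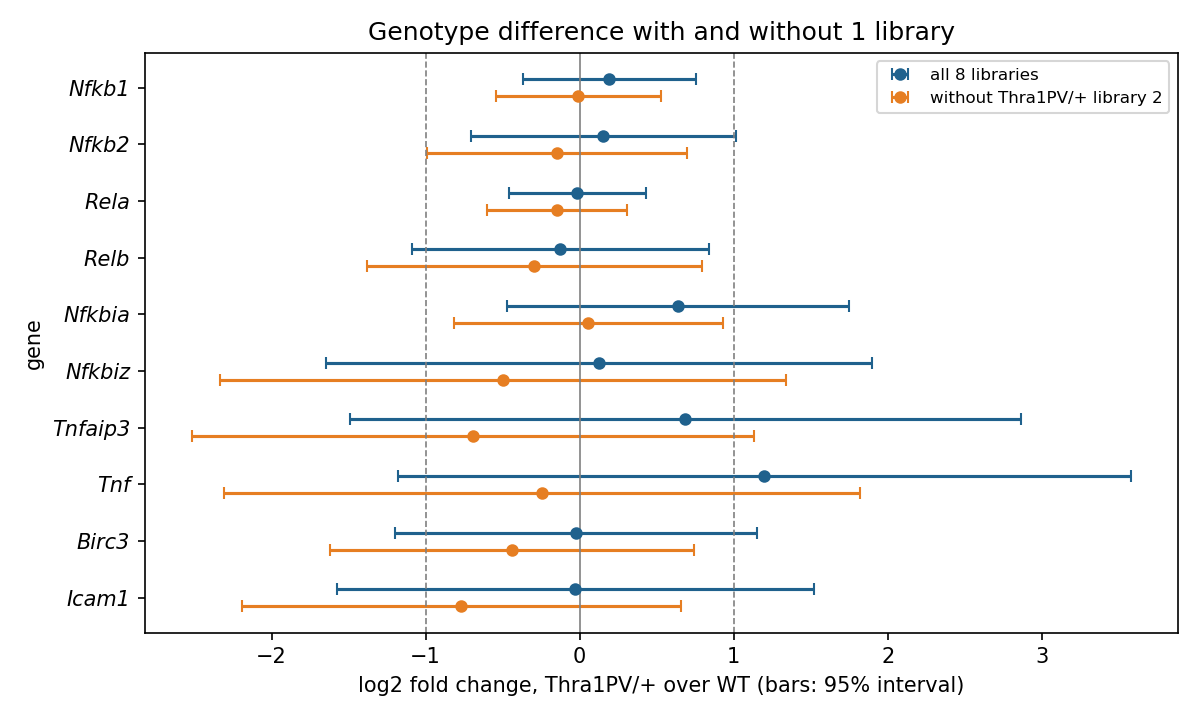
Log2 fold change of Thra1PV/+ over WT for each NF-kB gene with its 95% interval, from all 8 libraries (blue) and without Thra1PV/+ library 2 (orange), with dashed lines at a 2-fold difference. Every interval spans 0 in both fits, and the estimate for Tnf moves from 1.20 to -0.25.

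The 10 genes varied together from library to library. Over the 8 libraries, Pearson's r of log2 CPM was between 0.56 and 0.99 for the 45 pairs of genes, with a median of 0.88. After the mean of each genotype was removed it was between 0.57 and 0.99, with a median of 0.90. These correlations are a description over 8 libraries that differed in depth and cell makeup, not a test. The part of either in the correlations was not tested. The span over libraries was 85.8-fold for Tnf, 27.8-fold for Tnfaip3, 17.1-fold for Nfkbiz and 11.3-fold for Icam1. It was 5.70-fold for Nfkbia, 4.88-fold for Birc3, 4.58-fold for Relb and 3.46-fold for Nfkb2. The narrowest spans were 2.10-fold for Nfkb1 and 1.70-fold for Rela.

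The ratio of an induced gene to Rela within a library does not depend on scaling between libraries. Nfkbia to Rela was 1.94, 5.02, 2.81 and 2.14 in Thra1PV/+ libraries 1 to 4 and 1.66, 1.45, 2.01 and 2.76 in WT. On the log2 scale it averaged 1.47 ± 0.62 (SD, n = 4) in Thra1PV/+ and 0.94 ± 0.40 (SD, n = 4) in WT, a difference of 0.53 (two-sided exact permutation test, p = 0.2, adjusted p = 0.8 over 4 ratios). Thra1PV/+ libraries 2, 3 and 4 were above 3 of the 4 WT libraries, and WT library 4 lay above Thra1PV/+ libraries 1 and 4. The differences of Tnfaip3 to Rela, Relb to Rela and Nfkb2 to Nfkb1 were 0.47, 0.06 and -0.03 (exact permutation p = 0.657, 0.914 and 0.914, adjusted p = 0.914 each). With 4 against 4 libraries the smallest p this test allows is 0.0286. Relb to Rela varied less among Thra1PV/+ libraries (SD 0.12 on the log2 scale) than among WT libraries (SD 0.75), a difference in spread that was not tested.

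Marker genes of other cell types moved with the NF-kB genes. After the mean of each genotype was removed, the correlation over the 8 libraries of a gene with the mean log2 CPM of the neutrophil markers was between 0.64 and 0.90, with a median of 0.84 over the 10 genes. With the stromal markers it was between -0.91 and -0.54, and with the endothelial markers between -0.85 and -0.45. Simple epithelium markers correlated positively, between 0.25 and 0.67. General leukocyte markers correlated negatively, between -0.73 and -0.17 with a median of -0.48, as did B and plasma cell markers, between -0.69 and -0.42. Thra1PV/+ library 2, the highest of all libraries for 9 of the NF-kB genes, had the lowest summed leukocyte and macrophage markers of the 8 libraries, at 263 and 228 CPM. It also had the lowest stromal, endothelial, smooth muscle and red blood cell sums of the 8, at 403, 52.45, 121 and 14.6 CPM. WT library 2, the lowest of all libraries for 9 of the NF-kB genes, had the highest stromal sum among WT, at 4856 CPM. WT library 1, which was lowest for none of them, was close to it at 4702 CPM. The neutrophil receptor genes Cxcr2 and Csf3r were highest in Thra1PV/+ library 2, at 49.3 and 69.4 CPM, and highest among WT in library 4, at 14.6 and 23.6 CPM. The same libraries held the highest values of 10 and 9 of the NF-kB genes within their genotypes. Of the 10 neutrophil markers 7 were tested, 6 of them had a positive log2 fold change, and edgeR called none. The other was Ly6g at -0.24, with means of 0.744 CPM in Thra1PV/+ and 0.879 CPM in WT. Ngp, Camp and Mmp8, which encode granule proteins, did not pass the filter on low counts, and Ngp and Camp reached at most 12 and 4 counts in a library. Ltf, also made by uterine epithelium, dominated the list's sum, which ran from 4694 to 11560 CPM in Thra1PV/+ libraries and from 1298 to 16030 CPM in WT. Without Ltf, S100a8 and S100a9, the latter pair also made by squamous epithelium, the 4 remaining markers summed to 30.4, 122.7, 74.2 and 38.6 CPM in Thra1PV/+ libraries 1 to 4 and to 15.6, 6.16, 8.02 and 40.9 CPM in WT. In Thra1PV/+ libraries Cxcr2 and Csf3r averaged 23.2 and 40.3 CPM, against 2.24 CPM for Retnlg and 0.744 CPM for Ly6g. That sum therefore mostly repeats Cxcr2 and Csf3r. The part of any of these cell types in the levels of the NF-kB genes was not tested.

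**Figure D3:**
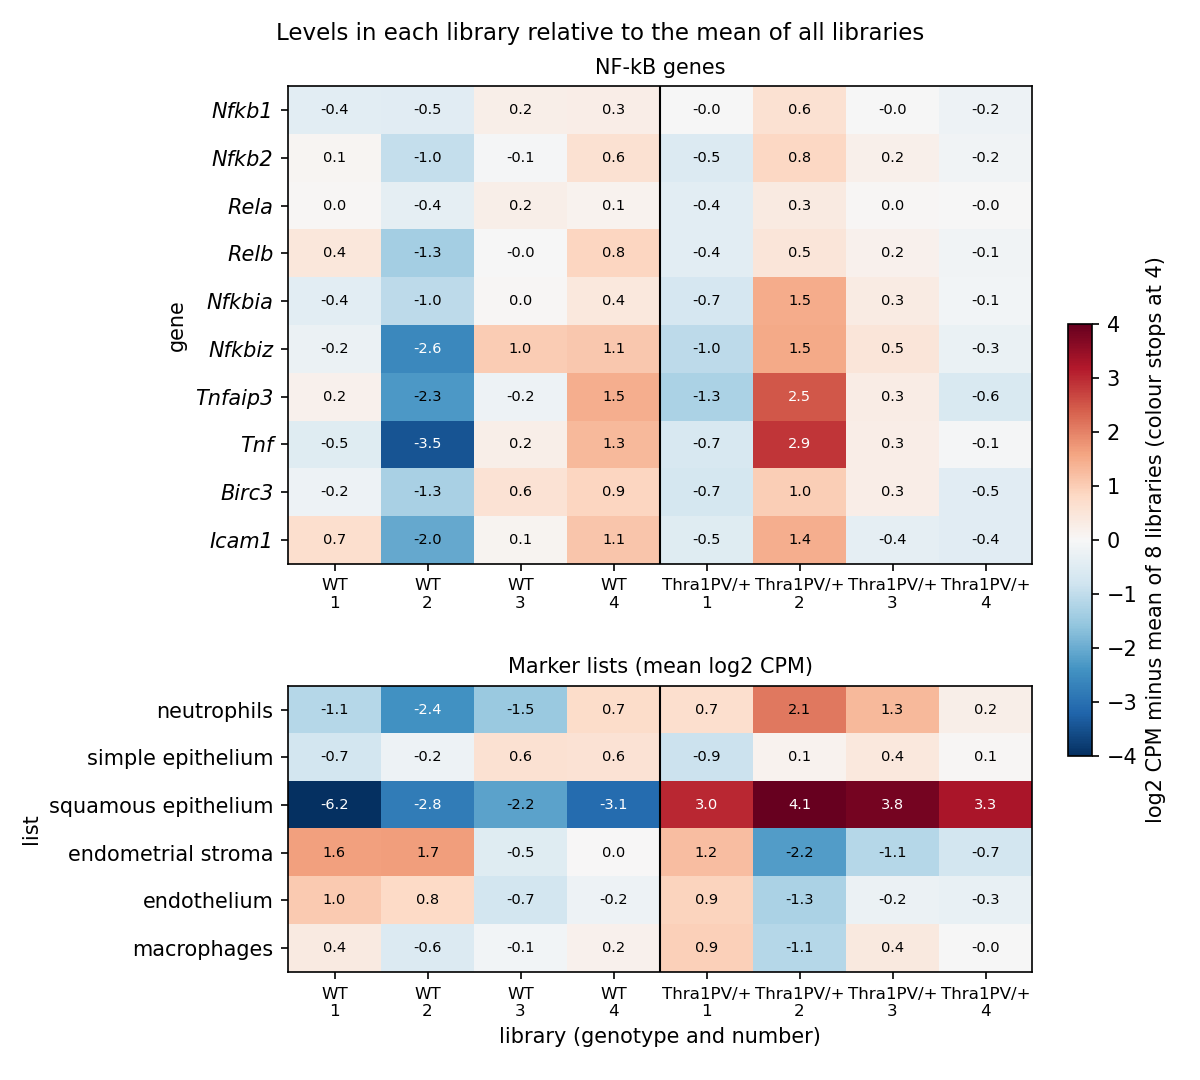
Deviation of each library from the mean of the 8 libraries (log2 CPM, colour scale stopping at 4 either way) for the 10 NF-kB genes (top) and for the mean of 6 marker lists (bottom), with WT libraries left of the line. The NF-kB genes are high in Thra1PV/+ library 2 and WT library 4 and low in WT library 2. The neutrophil row is highest in Thra1PV/+ library 2 (mean 6.11 log2 CPM) and lowest in WT library 2 (1.58), with WT library 4 the highest WT library (4.72) but below Thra1PV/+ library 3 (5.29), and the squamous row separates the genotypes.

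The genes whose log2 CPM followed a member most closely were sought for the 3 members with the smallest p, Nfkbia, Tnf and Nfkb1, over the 8 libraries and without a test. For Nfkbia they were Srpk1 (r = 0.985), Slmapos2 (r = 0.982) and Fam118b (r = 0.978). For Tnf they were Gm47922 (r = 0.983), Slc10a2 (r = 0.978) and Neurl3 (r = 0.973). For Nfkb1 they were Tcf20 (r = 0.970), Tank (r = 0.969) and Nvl (r = 0.960). None of these 9 genes was called between the genotypes, and Slc10a2, at no more than 0.710 CPM in any library, rests on few counts.

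Around the 10 genes, 147 further pathway genes were listed by role, of which 144 were found and 137 tested. By edgeR 1 of the 137 was called higher in Thra1PV/+ endometrium and none lower, against 0.990% of all tested genes (168 higher and 12 lower). DESeq2, which kept more genes, called 6 of 144 pathway genes, against 793 of all 30306 genes. The 6 were Card14, Edar, Il1r2 and Cxcl3, which were higher, and Traf1 and Mmp3, which were lower. Without adjustment edgeR gave 8 higher and 2 lower at p under 0.05, against 9.77% of all tested genes, and the genotypes did not overlap for 6, against 6.04%. The log2 fold change was positive for 83 of the 137, against 43.2%, and the median was 0.13. Most of the positive signs of the 10 NF-kB genes turned without Thra1PV/+ library 2. That count was not made for the wider lists.

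None of the 8 other subunit and IkB genes was called by edgeR or DESeq2, with a median of -0.01. Rel, which encodes c-Rel, stood at 25.6 ± 13.6 CPM (SD, n = 4) in Thra1PV/+ and 25.7 ± 12.1 CPM (SD, n = 4) in WT. Bcl3, a nuclear IkB protein that works with p50 and p52, had a log2 fold change of 0.50 (SE 0.724, adjusted p = 0.880).

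Of 30 kinase and adaptor genes, edgeR called Card14. It encodes a scaffold of keratinocytes that assembles with Bcl10 and Malt1 to activate the IkB kinase. Card14 was counted 61, 151, 114 and 99 times in Thra1PV/+ libraries 1 to 4 and 8, 7, 5 and 1 times in WT. All Thra1PV/+ libraries were above all WT libraries, with a log2 fold change of 4.33 (SE 0.603, 95% interval 2.94 to 5.71, adjusted p = 0.0203). The filter of 10 counts in every library left Card14 untested. Of the 18 alternatives that tested it, 16 called it, all but the fit with a replicate block and limma on log2(TPM + 1). Squamous markers, which summed to at least 2906 CPM in Thra1PV/+ libraries and at most 66.0 CPM in WT, moved with Card14, and their part was not tested. The kinase genes themselves showed small differences: the log2 fold change was -0.08 for Chuk, 0.00 for Ikbkb and 0.06 for Ikbkg, which encode the subunits of the IkB kinase, and -0.28 for Map3k14, the kinase of the alternative pathway, none of them called.

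Traf1, an adaptor of TNF receptors and itself a known NF-kB target, was at 4.68, 7.73, 6.93 and 6.57 CPM in Thra1PV/+ libraries 1 to 4 and at 11.5, 18.8, 19.2 and 9.52 CPM in WT. The genotypes did not overlap, and WT libraries were higher. The log2 fold change was -1.19 (SE 0.293, 95% interval -1.86 to -0.52), with an adjusted p of 0.190 by edgeR, while DESeq2 called it (adjusted p = 0.0115) and the adjusted p reached 0.482 over all alternatives.

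Among 22 receptor genes tested edgeR called none and 17 had a positive log2 fold change, with a median of 0.27. Edar, the ectodysplasin receptor of skin appendages, was counted 249, 159, 154 and 231 times in Thra1PV/+ libraries 1 to 4 and 17, 22, 0 and 11 times in WT. Its libraries did not overlap by genotype, and its log2 fold change of 3.96 (SE 0.854) had an adjusted p of 0.122 by edgeR. Edar was called under 5 of 18 alternatives, namely DESeq2 (adjusted p = 1.21e-07), limma voom with sample weights (0.0343), limma on log2(TPM + 1) (0.0025) and log2(TPM + 0.1) (0.00752), and edgeR without WT library 3 (0.0123), and its adjusted p reached 0.302 over the 18. Il1r2, the decoy receptor of interleukin 1, had a log2 fold change of 2.19 (adjusted p = 0.432) and was called by DESeq2 alone (adjusted p = 0.0984, up to 0.773 over all alternatives). Il1rap, the shared chain of interleukin 1 receptors, had one of 0.90 (adjusted p = 0.352). The 12 ligand genes had a median of 0.36, with none called and none at an unadjusted p under 0.05.

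None of the 17 further feedback inhibitors was called or reached an unadjusted p under 0.05, and their median was 0.13. Cyld, a deubiquitinase that restrains the pathway, had a log2 fold change of 0.07 (95% interval -0.33 to 0.47), and Tnip1, a partner of A20, one of 0.13 (95% interval -0.28 to 0.54). The genotypes overlapped for 16 of the 17, Otulin at -0.19 being the other. None of 20 survival and stress targets was called. Cd44, a hyaluronan receptor, had the smallest p among them, with a log2 fold change of 1.29 (SE 0.472, adjusted p = 0.413).

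Of 28 adhesion and inflammatory targets 12 were above 0 and 16 below, with a median of -0.28 and none called by edgeR, while DESeq2 called Cxcl3 higher (adjusted p = 0.0109) and Mmp3 lower (adjusted p = 0.0755). Over all alternatives the adjusted p of Cxcl3 reached 0.746 and that of Mmp3 0.803. Selplg, the selectin ligand of leukocytes, had a log2 fold change of 0.70 (SE 0.195, adjusted p = 0.266) without overlap of the genotypes. Cxcl3, a neutrophil-attracting chemokine, stood at 16.3, 106.6, 16.1 and 3.45 CPM in Thra1PV/+ libraries 1 to 4 and at 0.763, 0.108, 1.25 and 6.13 CPM in WT (log2 fold change 4.11, SE 1.372, adjusted p = 0.363). As for 9 of the 10 NF-kB genes, its highest libraries within the genotypes were number 2 of Thra1PV/+ and number 4 of WT. Il23a, a cytokine subunit, had a log2 fold change of 1.76 (adjusted p = 0.439), and Mmp3, a stromal protease, one of -3.68 (SE 1.411, adjusted p = 0.444).

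**Figure D4:**
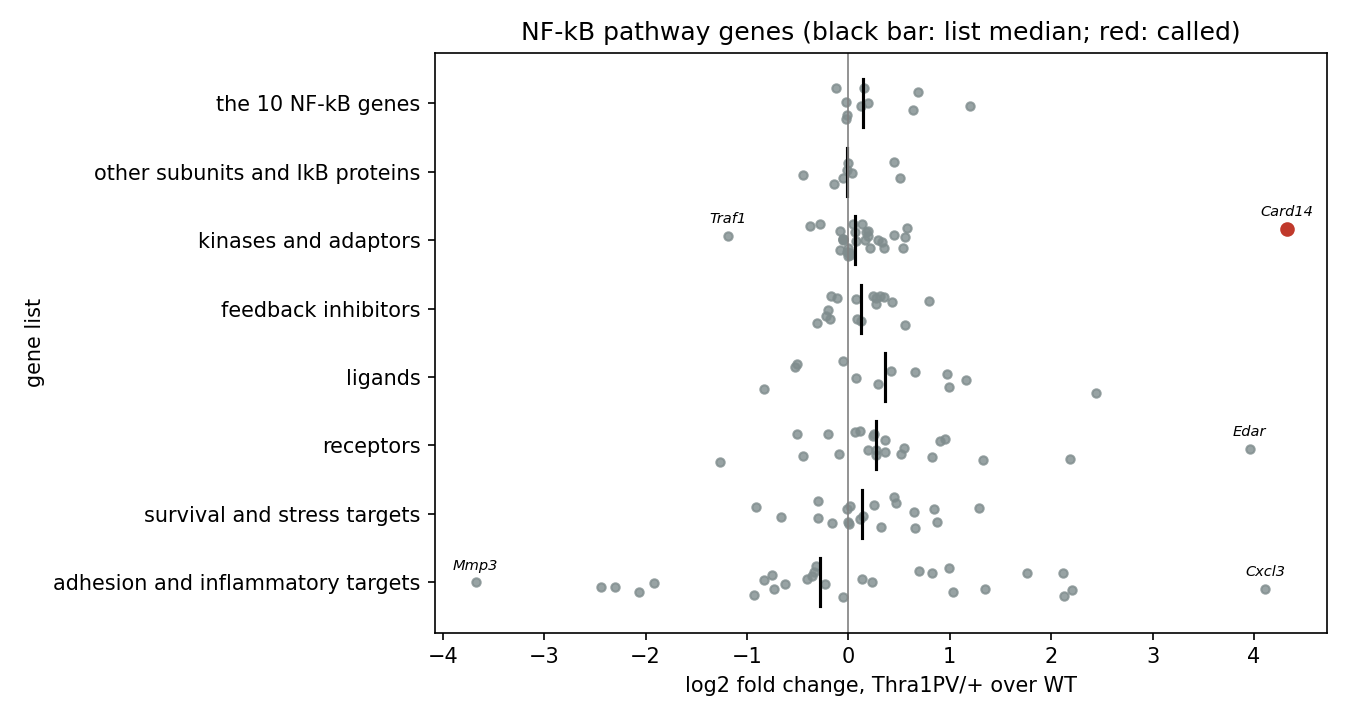
Log2 fold change of Thra1PV/+ over WT for the 10 NF-kB genes and for the tested genes of 7 wider lists, 1 point per gene, with a black bar at the median of each list. Card14, in red at 4.33, is the only gene called by edgeR, and the list medians lie between -0.28 and 0.36.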

How the data were processed

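The 4 WT and 4 Thra1PV/+ libraries were stranded paired-end mRNA libraries of endometrium captured by laser. Per the labels, Trimmomatic, salmon and DESeq2 were used, with mm10 as the build. The salmon version and annotation release were not given in the sources used here. A deposited table holds the authors' estimated counts, not normalized. The authors deposited TPM values as well, whose sorted values differed by at most 0.291 TPM between libraries at any rank, the form that quantile normalization gives. In that table, 1 value column matching no sample was not used.

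Estimated counts were rounded to whole numbers and tested with edgeR 4.0.16 in R 4.3.3, using filterByExpr (minimum count 10, minimum total 15), TMM and the quasi-likelihood test on genotype, with Benjamini-Hochberg adjustment over 18174 genes. Calls required at least a 2-fold difference and an adjusted p no higher than 0.1. Every adjusted p is from this test unless another is named. Standard errors were back-calculated from F statistics, and the prior count for log2 CPM was 2. The script was tested on simulated data. Symbols were matched for 52220 identifiers, and those without one held at most 0.00896% of a library. Genes were placed with GENCODE M21 (GRCm38), promoters with RefSeq (GRCm38.p6).

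The members, the wider lists, the markers and the tests were chosen with earlier results of these data known. All 10 members were named, and from each wider list the called genes or up to 4 genes of smallest unadjusted p under 0.05, besides the subunits of the IkB kinase and a few genes given by role after their values were seen. For each of the 3 members of smallest p, the 3 genes most correlated with it were named. From the ligand list 3 interleukin genes, Il36a, Il36b and Il36g, were not found by symbol. Alternatives were DESeq2 1.42.0, limma 3.58.1, other scalings, filters and pseudocounts, and leaving out each library. The study's supplement gives 4 mice of each genotype for these libraries.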

Additional observations from a re-analysis of the deposited data

Results flagged for a closer look

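Of 28 groups of 4 libraries tested for a library far from the others, 1 was flagged, where chance alone flags about 1 in 20 groups, or 1.4 here. For Icam1 in Thra1PV/+ endometrium, library 2 stood at 6.91 log2 CPM while the other 3 libraries lay between 4.97 and 5.10, a gap that made up 0.933 of the range of the group. The same library was the highest of its genotype for all 10 NF-kB genes, and it also held the highest Cxcr2 and Csf3r values of the 8 libraries. The part of its cell makeup in the Icam1 level was not tested.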

How the results depend on the processing

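No NF-kB gene was called under any alternative. The count of all genes called was 793 with DESeq2, 81 with at least 10 counts in every library, 311 with limma voom and sample weights and 1775 at an unadjusted p under 0.05. Without 1 library it lay between 81 and 167. The wider pathway genes called numbered 6 with DESeq2, 0 with at least 10 counts in every library, 2 with voom weights, 2 on log2(TPM + 0.1), 10 at an unadjusted p under 0.05, and 1 to 2 without 1 library. Card14 was not tested under the filter of 10 counts in every library. Nothing in the labels says that the replicate numbers pair the libraries. Same-numbered libraries correlated at 0.269, -0.436, 0.340 and -0.159 after genotype means, and only number 3 correlated best with its own number. So few correlations cannot decide whether the numbers pair the mice. With the replicate block 82 genes, 0 NF-kB genes and 0 wider genes were called, and Tnfaip3 stood at 0.03, Tnf at 0.52 and Nfkbiz at 0.01. With voom weights Tnfaip3 was 0.18, Nfkb1 0.06, Nfkb2 0.10, Nfkbiz 0.30 and Tnf 0.81, and on log2(TPM + 1) Tnfaip3 was 0.31, Nfkbiz 0.40 and Tnf 0.79. Leaving out 1 library gave 1 to 10 positive NF-kB genes. Their log2 fold changes ran from -0.01 to 0.33 for Nfkb1, -0.15 to 0.42 for Nfkb2, -0.15 to 0.15 for Rela, -0.38 to 0.19 for Relb, 0.06 to 0.93 for Nfkbia, -0.50 to 0.47 for Nfkbiz, -0.69 to 1.44 for Tnfaip3, -0.25 to 1.94 for Tnf, -0.44 to 0.29 for Birc3 and -0.77 to 0.35 for Icam1. The log2 ratio differences ran from 0.24 to 0.71 for Nfkbia to Rela, -0.17 to 0.98 for Tnfaip3 to Rela, -0.25 to 0.31 for Relb to Rela and -0.21 to 0.14 for Nfkb2 to Nfkb1. Rela turned to 0.01 with DESeq2, DESeq2 size factors, voom weights and a filter of 1 count, to 0.02 with upper-quartile scaling and to 0.06 with library size alone. Birc3 turned to 0.02 and 0.07 under those 2 scalings, 0.00 with the filter of 1 count, and 0.23 and 0.24 on log2(TPM + 1) and log2(TPM + 0.1). Icam1 turned to 0.01, 0.04, 0.00, 0.07 and 0.10 under the same 5 settings. The ratio of Relb to Rela from TPM was -0.01. The cause of these turns was not tested. Library-size scaling moved the median of all genes from -0.05 to 0.03. Tnf rested on few counts in WT library 2, with 28, against 2138 in Thra1PV/+ library 2. The totals of these libraries were alike, at 50998530 and 50534786 estimated counts.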
